A study of Mus musculus with 4 samples.

Results

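The genes described here are 9 genes of vitamin A (retinoid) metabolism and signalling, Aldh1a1, Aldh1a2, Aldh1a3, Aldh1a7, Crabp1, Crabp2, Rarb, Cyp26b1 and Stra6, in mouse embryonic fibroblasts. They were found by symbol in the annotation of a whole mouse genome array, where they are read by 11 of 41174 probes outside the controls, that is 9 of 27656 gene names. The set was chosen by measured values of these same arrays, namely the density and genotype log2 ratios of some of its members, so all values below are descriptions and none is a test. Of the 9 genes, 7 were well above background on both arrays of at least 1 culture. Aldh1a2 and Crabp2 were well above background on no array.

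RNA came from C57BL/6J embryonic fibroblasts labelled Lats2-/- (knockout, KO) or Lats2+/+ (wild type, WT). The kinase Lats2 belongs to the Hippo pathway, through which crowding restrains growth. For each genotype, a low density culture, subconfluent after 48 hours, was compared with a denser one (high density) harvested at 3 to 5 days, so time in culture changed together with density. All cultures were grown in serum-containing medium, and the labels name no retinoid treatment and give neither the number of embryos nor their age. Each genotype was hybridised on 2 Agilent 2-colour arrays, low density in Cy3 on array 1 and in Cy5 on array 2. Such a dye swap is a technical repeat, and whether its arrays shared their RNA extracts is not given in the labels. There was thus 1 replicate per genotype and density, no difference has a replicate check, and the spread between arrays 1 and 2 is technical.

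Retinol enters cells from its carrier protein through the receptor Stra6 and is oxidised to retinaldehyde. Retinaldehyde dehydrogenases of the Aldh1a family then oxidise retinaldehyde to retinoic acid. Retinoic acid is held in the cytoplasm by the binding proteins Crabp1 and Crabp2, is inactivated by enzymes of the Cyp26 family, and in the nucleus binds the retinoic acid receptors, one of which, Rarb, is itself a classical target gene. In the embryo the balance of synthesis by Aldh1a enzymes and removal by Cyp26 enzymes shapes limb, hindbrain and body axis, and mesenchymal cells take part in both.

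Per channel, 52.8% to 67.7% of 43379 spots were well above background and none was saturated. KO array 1 stood apart with 67.7% in Cy5 and 62.6% in Cy3, while the other arrays reached at most 56.2%. Both WT arrays were on 1 slide read in 1 scan session and the KO arrays on 2 other slides read at other times, so slide and scan cannot be told apart from genotype. At both densities 3 of the 4 Lats2 probes were brighter in the labelled KO, which goes against the label, and 1 was dimmer. The labels are also at odds with themselves, LAT2 standing in the source names and Lats2 in the genotype. The study presents a western blot of Lats2 protein as its evidence for the knockout in its fibroblasts, which runs the way the labels say and is not analysed here. The groups are therefore called labelled KO and labelled WT, and each direction between genotypes rests on these labels. All 8 fibroblast markers examined were well above background in all 4 cultures. Of 6 macrophage markers, Ptprc, Adgre1 and Itgam were well above background in no culture, whereas Lyz2, Cd68 and Csf1r were measured in at least 1. In bulk RNA, a change in the share of cells expressing a gene and a change in RNA per cell cannot be told apart.

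A level below is the normalized intensity of a probe on the log2 scale, and a difference is a log2 ratio averaged over both arrays or both dyes. Levels of different probes are not comparable with each other. A gene was counted as higher or lower when its brightest probe had a mean log2 ratio of at least 1 in size (2-fold), and both arrays (density) or both dyes (genotype) gave that direction. Over all genes measured, 1 array deviated from its pair mean with an SD of 0.102 to 0.144 log2 units, depending on the comparison. Where a probe was not well above background on either array of a culture, its fold is given as a bound. The bound is taken against the higher of the probe's own signal and the dimmest signal measured in that channel. Such a bound can equal the measured ratio.

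**Figure D1:**
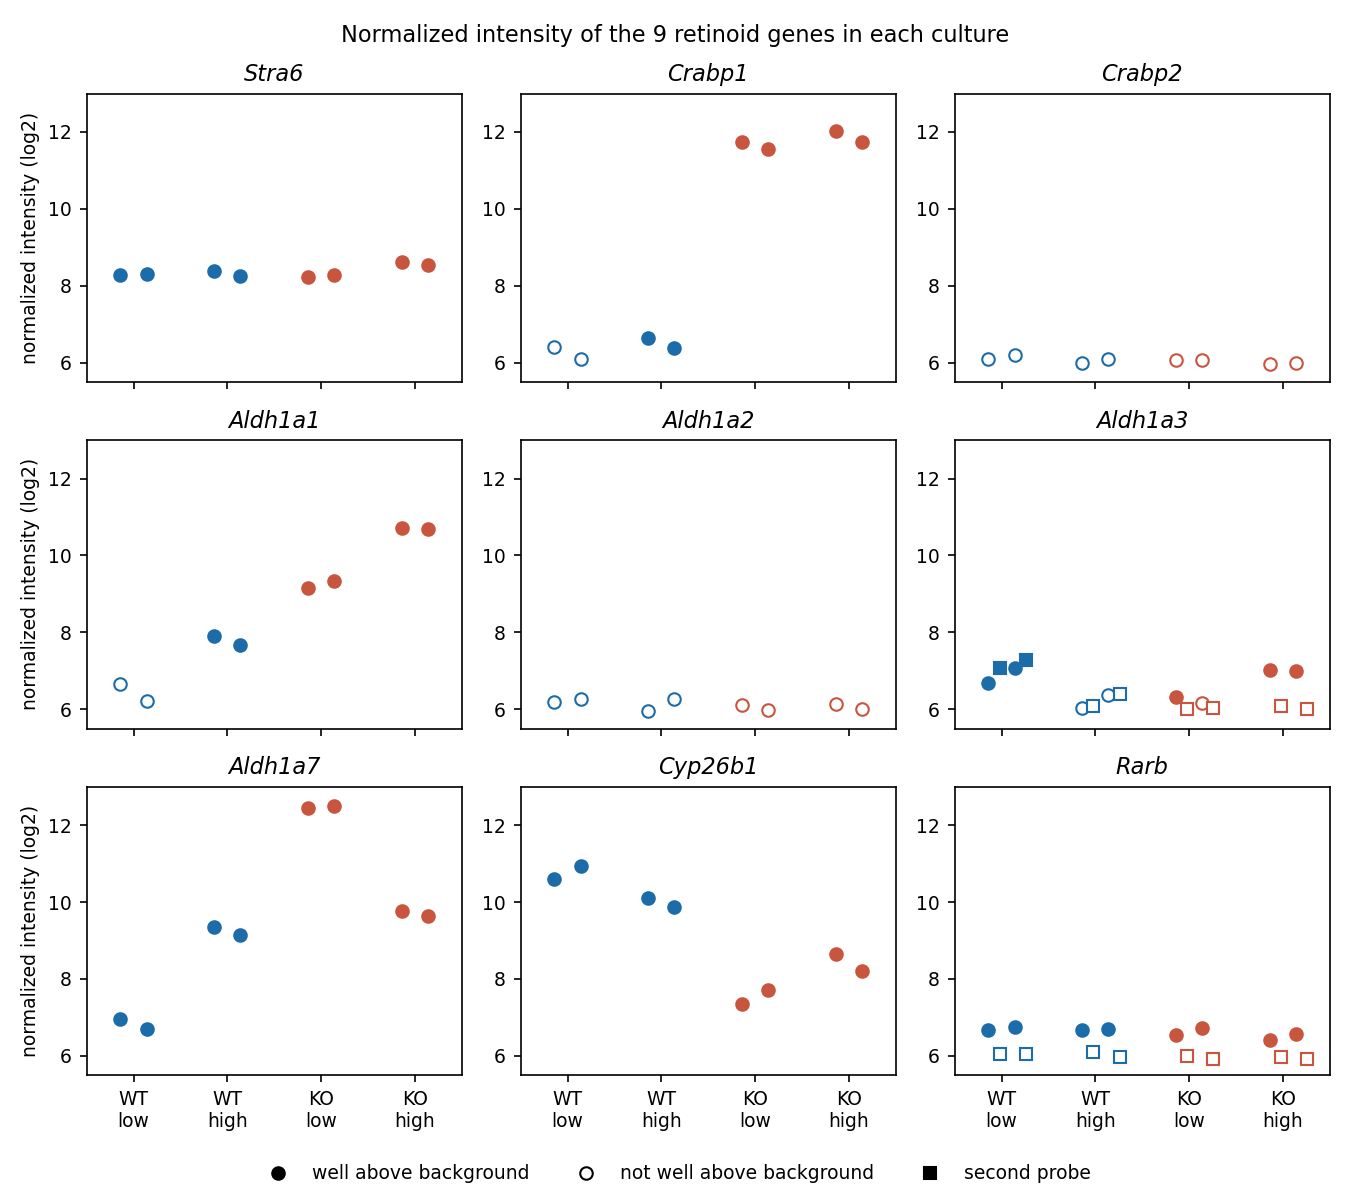
Normalized intensity (log2, y axis) of the 9 retinoid genes in the 4 cultures (x axis), with array 1 at the left and array 2 at the right of each culture. Filled symbols are well above background, open symbols are not, circles show the brightest probe and squares the second probe of Aldh1a3 and Rarb. Crabp1 separates the cultures labelled KO, at 11.57 to 12.03, from those labelled WT, at 6.11 to 6.64, whereas Aldh1a7 changes with density in opposite directions.

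Stra6, the membrane receptor that takes up retinol, was nearly level. Its log2 level was 8.28 and 8.31 (arrays 1 and 2) in WT low density, 8.39 and 8.25 in WT high density, 8.24 and 8.29 in KO low density and 8.62 and 8.54 in KO high density. The KO high density culture lay above the other 3 on both arrays, and the ranges of those 3 overlapped. The density log2 ratio was 0.02 in the cells labelled WT and 0.31 in those labelled KO, and neither reached 2-fold. The probe lies at chr9:57950709-57951320 on the plus strand of build mm8, the build of all probe positions given here, a span wider than a probe. Which exon each probe reads was not assigned.

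Crabp1, a cytoplasmic binding protein for retinoic acid, showed the widest gap between genotypes at high density among the members. Its log2 level was 11.73 and 11.57 in KO low density and 12.03 and 11.74 in KO high density. In WT high density it was 6.64 and 6.39, and in WT low density it was not well above background, at 6.41 and 6.11. The groups did not overlap, every KO array being brighter than every WT array by several log2 units. At high density the labelled KO exceeded the labelled WT by 5.39 and 5.35 in the separate dye comparisons, a 41.4-fold difference that ranked 18 from the top of 15621 genes measured. The WT signals there lay little above background, and the mean log2 ratio of 5.37 became 6.21 with a normexp offset of 10 and 7.01 with the software's processed signals. At low density the labelled KO was at least 41.8-fold higher. With density its log2 ratio was 0.24 in KO. In WT, with low density dim, it was at least 1.19-fold higher at high density, and 1.56 on the log2 scale with the software's processed signals. The probe lies at chr9:54566522-54566581. Crabp2, the binding protein that passes retinoic acid to its nuclear receptors, stayed between 5.97 and 6.20 in all 8 channels and was well above background in none.

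Aldh1a1, a retinaldehyde dehydrogenase, was higher at high than at low density in both genotypes and higher in the labelled KO at both densities. Its log2 level was 6.65 and 6.22 in WT low density, where it was not well above background, and 7.90 and 7.67 in WT high density. In KO it was 9.16 and 9.33 at low density and 10.71 and 10.70 at high density. The 4 cultures lay in this order without overlap between neighbours. With density it was at least 2.56-fold higher in WT and 2.74-fold higher in KO, with array log2 ratios of 1.54 and 1.37 in KO. The labelled KO exceeded the labelled WT at least 7.04-fold at low density and 7.55-fold at high density. The WT density effect is a bound, so the difference between the density effects has no settled size or sign: KO minus WT was 0.10 on the log2 scale at the measured signals, -0.56 with a normexp offset of 10 and -1.70 with the software's processed signals.

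Aldh1a7, a close relative of Aldh1a1 in rodents, had the density log2 ratios largest in size among the 7 measured members in both genotypes. Its log2 level was 6.97 and 6.70 in WT low density and 9.35 and 9.14 in WT high density. In KO it was 12.44 and 12.49 at low density and 9.78 and 9.65 at high density. KO low density stood far above the other cultures, WT low density far below them, and the high density cultures lay near each other in between. The gene was 5.30-fold higher at high density in the cells labelled WT, with array log2 ratios of 2.38 and 2.44, and 6.73-fold lower in those labelled KO, with -2.66 and -2.84. The density log2 ratio of KO minus that of WT was -5.16, and only 5 of 14170 genes ranked below it. At low density the labelled KO exceeded the labelled WT 49.5-fold, rank 7 of 15255 genes, and at high density by a log2 ratio of 0.47, which did not reach 2-fold. With the software's processed signals the genotype log2 ratio at low density was 6.94 in place of 5.63. The density log2 ratio in WT was then 3.52 in place of 2.41.

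Aldh1a1 and Aldh1a7 are neighbours on chromosome 19, 49.5 kb apart with 0 protein-coding genes between them in RefSeq (GRCm38.p6). Their upstream sequences are shown because these related genes had the same direction with density in the labelled WT and opposite directions in the labelled KO. Each run holds the 120 bases before the transcript start, 5′ to 3′ on the strand of the gene, and capitals mark the longest stretch shared without a mismatch, 65 bases from -94 to -30. The Aldh1a1 window is chr19:20601848-20601967 on the plus strand and the Aldh1a7 window chr19:20727557-20727676 on the minus strand, both from RefSeq on GRCm38.p6.
Aldh1a1: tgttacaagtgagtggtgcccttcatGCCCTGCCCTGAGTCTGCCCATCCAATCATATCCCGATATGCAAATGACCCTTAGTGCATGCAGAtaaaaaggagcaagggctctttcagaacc
Aldh1a7: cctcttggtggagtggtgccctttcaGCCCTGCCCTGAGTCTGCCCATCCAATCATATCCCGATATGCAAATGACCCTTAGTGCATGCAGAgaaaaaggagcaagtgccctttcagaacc
Without gaps, 87.5% of the 120 bases were identical. The Aldh1a1 probe lies at chr19:20710371-20710430 on the plus strand and the Aldh1a7 probe at chr19:20760160-20760219 on the minus strand of build mm8. Probe sequences were not used here, so cross-hybridisation between these genes was not tested. In KO the Aldh1a7 signal was lower at high density while the Aldh1a1 signal was higher.

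Aldh1a3, another retinaldehyde dehydrogenase, was dim and its 2 probes differed in KO. At the probe at chr7:66269849-66269908 the log2 level was 6.69 and 7.08 in WT low density and 7.02 and 6.99 in KO high density. In WT high density it was not well above background on either array, at 6.03 and 6.38, and in KO low density, at 6.33 and 6.17, it was well above background on array 1 and not on array 2. WT low density and KO high density overlapped, and the other cultures were dimmer. The signal was thus at least 1.52-fold dimmer in WT at high density, while the KO log2 ratio was 0.75 in the other direction, and the difference between these density effects was 1.43 at the measured signals, which include the dim channels. The second probe, at chr7:66287971-66288030, was well above background in WT low density only, at 7.08 and 7.29, and was there at least 1.86-fold brighter than in WT high density and at least 2.21-fold brighter than in KO low density. It gave no value for density in KO, and the KO ratio of 0.75 at the other probe did not reach 2-fold. Aldh1a2, the main retinoic acid producing enzyme of the early embryo, stayed between 5.95 and 6.28 and was well above background in no channel.

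Cyp26b1, which inactivates retinoic acid, ran opposite to Crabp1 and Aldh1a1 between genotypes. Its log2 level was 10.61 and 10.93 in WT low density and 10.11 and 9.86 in WT high density. In KO it was 7.36 and 7.71 at low density and 8.66 and 8.22 at high density. No culture overlapped with another, and both KO cultures were below both WT cultures. The labelled KO was 9.44-fold lower at low density (log2 ratios of -3.25 and -3.23 by dye) and 2.92-fold lower at high density (-1.45 and -1.64). With density the array log2 ratios were -0.50 and -1.07 in WT and 1.30 and 0.51 in KO. The directions were opposite, each mean stayed under 2-fold, and the arrays of a pair lay farther apart than the SD over all genes. A single array decides the count here, since Cyp26b1 passes 2-fold on WT array 2 and on KO array 1 taken singly. The difference between these density effects was 1.69 (1.80 in one dye orientation and 1.58 in the other). The probe lies at chr6:84537616-84537675.

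Rarb, a retinoic acid receptor, was flat at a low signal. Its log2 level at the probe at chr14:15224264-15224323, printed in 10 spots per array, was 6.68 and 6.76 in WT low density, 6.68 and 6.71 in WT high density, 6.54 and 6.73 in KO low density and 6.41 and 6.58 in KO high density. The ranges of neighbouring cultures overlapped, and with this offset no mean log2 ratio exceeded 0.20 in size. With the software's processed signals it was -0.67 between genotypes at high density and -0.53 with density in KO, under 2-fold. On WT array 1, 1 of the spots was left out as an outlier. A second probe was well above background in no channel.

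The upstream sequence of Rarb is shown because it holds the kind of element through which retinoic acid receptors are known to act. It covers the 110 bases before the transcript start, chr14:16575477-16575586 on the minus strand of GRCm38.p6 (RefSeq), with the element in capitals at -53 to -37.
Rarb: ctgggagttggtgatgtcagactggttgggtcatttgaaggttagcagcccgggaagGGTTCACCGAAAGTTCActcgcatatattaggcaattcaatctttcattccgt
The element searched was the DR5 retinoic acid response element, a direct repeat of the nuclear receptor half-site with 5 bases between the copies, on either strand, from 250 bases before to 50 bases after the start. It occurred in 32 of 32851 RefSeq promoters (0.0974%). Of the members, 7 had promoters there (11 entries) and Rarb alone held the element. The same repeat with 2 bases between the copies (DR2) occurred in 0.268% and with 1 base (DR1) in 0.222% of promoters, and in those of no member. A match is a description of letters, not of binding.

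**Figure D2:**
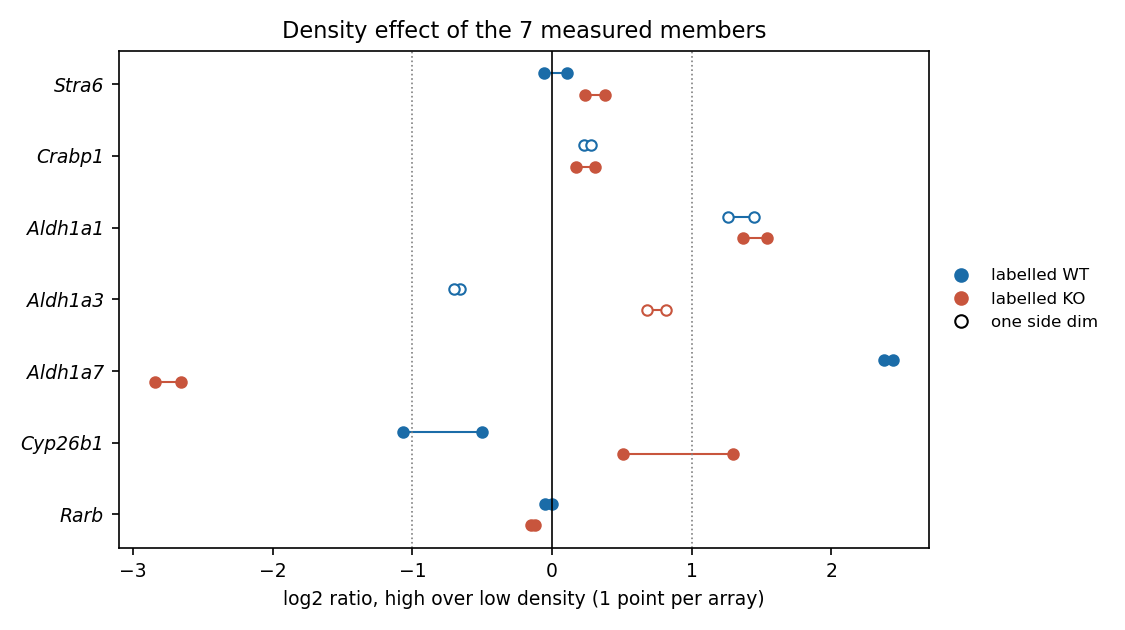
Log2 ratio of high over low density (x axis, 1 point per array) for the 7 measured members, in the cultures labelled WT and KO. Dotted lines mark 2-fold and open points a culture where at least 1 array had the probe not well above background. Aldh1a7 lies near 2.41 in WT and near -2.75 in KO.

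Taking the members as a set, 2 of 7 measured members were higher at high density in the cells labelled WT, Aldh1a1 and Aldh1a7, and 0 were lower. Of 14875 genes measured in this comparison, 9.41% were counted as higher and 6.09% as lower. In the cells labelled KO, 1 of 7 was higher (Aldh1a1) and 1 lower (Aldh1a7), where 7.15% of 15432 genes were higher and 3.87% lower. The median log2 ratio of the measured members was 0.02 in WT and 0.31 in KO, and that of all genes 0.06 in both. The members were chosen with these ratios known, so nothing is read from the counts. The share of higher among all genes counted as changed was 60.7% in WT and 64.9% in KO, and 47.0% and 42.8% with median centring in place of loess, under which the same members were counted.

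The density effect differed between genotypes by 2-fold or more in 3 of 7 members, positively for Aldh1a3 and Cyp26b1 and negatively for Aldh1a7. Aldh1a3 is counted at its measured signals, with WT high density dim and KO low density measured on 1 array. Over 14170 genes the shares were 4.55% and 4.98%. For each of them both dye orientations gave the same direction, and with 1 replicate the difference was not tested. The median difference was 0.10 for the members, the value of Aldh1a1 with WT low density dim, and 0.02 for all genes.

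**Figure D3:**
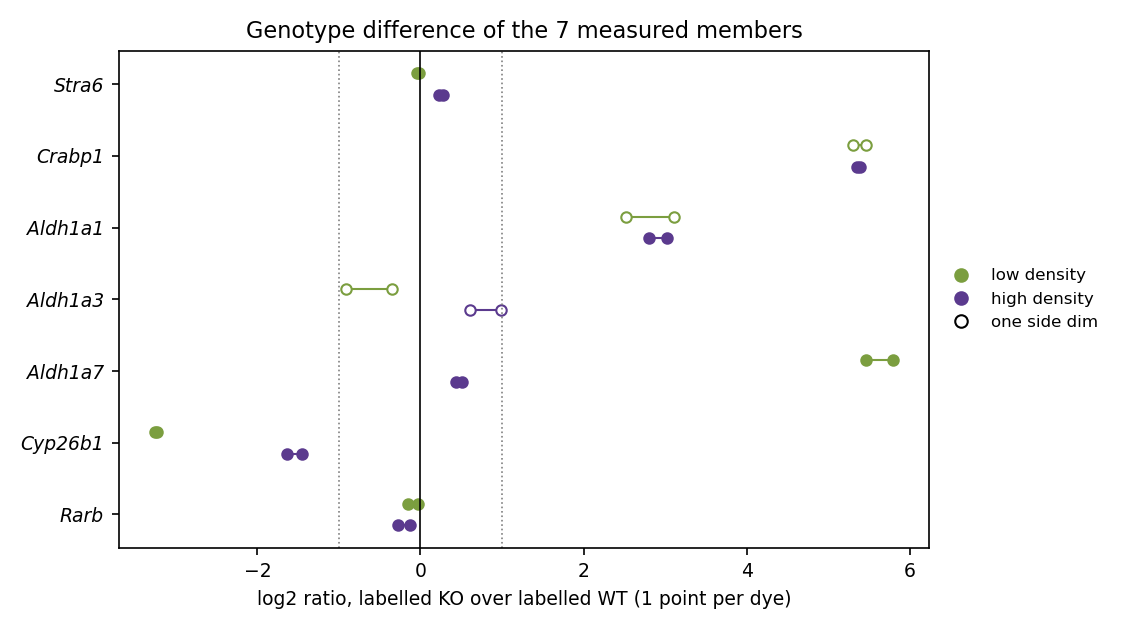
Log2 ratio of labelled KO over labelled WT (x axis, 1 point per dye) for the 7 measured members at low and high density. Dotted lines mark 2-fold and open points a comparison with at least 1 WT or KO channel not well above background. Crabp1 lies near 5.37 at high density and, with WT dim, is at least 41.8-fold higher at low density, while Aldh1a7 moves from 5.63 at low to 0.47 at high density.

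Between genotypes at low density, 3 of 7 members were higher in the labelled KO, Aldh1a7, Crabp1 and Aldh1a1, and 1 was lower, Cyp26b1. Of 15255 genes, 7.32% were higher and 8.36% lower. At high density 2 of 7 were higher, Crabp1 and Aldh1a1, and Cyp26b1 was again lower, against 6.74% higher and 7.79% lower of 15621 genes. The member medians were -0.03 and 0.47, and those of all genes 0.03 at both densities. Without scaling between arrays, the median over all genes was 0.27 at both densities and the share of higher among the changed genes was 69.1% and 66.6%, against 46.7% and 46.4% with scaling. The members counted were the same without it.

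Fibroblast markers and markers of other cell types moved with genotype and with density beside these members. The summed normalized intensity of the 8 fibroblast markers was 261000 to 304000 in WT low density, 394000 to 407000 in WT high density, 194000 to 260000 in KO low density and 550000 to 719000 in KO high density. With density 3 of the 8 were higher and 2 lower in WT, and 5 higher and 0 lower in KO. The shares over all genes were 9.41% and 6.09% in WT, and 7.15% and 3.87% in KO. In the labelled KO 1 was higher and 2 lower at low density, and 3 higher and 0 lower at high density. There the shares over all genes were 7.32% and 8.36%, and 6.74% and 7.79%. Pdgfra, a growth factor receptor of mesenchymal cells, was 22.0-fold higher in the labelled KO at low density and 8.56-fold at high density. With density Pdgfra was 8.27-fold higher in WT and 3.21-fold in KO. Its dimmer second probe was at least 1.71-fold higher in the labelled KO at low density and at least 2.59-fold at high density. With density that probe was 1.58-fold higher in KO, under 2-fold, and gave no value in WT. The matrix protein gene Fn1 was 3.04-fold lower at high density in WT and 2.04-fold higher in KO at its brightest probe. Its other probes were also over 2-fold lower in WT, but in KO gave log2 ratios of 0.85, 0.64 and 0.30, under 2-fold. The summed normalized intensity of the 6 macrophage markers was 478 to 498 in WT low density, 561 to 562 in WT high density, 1540 to 1850 in KO low density and 4380 to 5490 in KO high density. Of these markers 3 were measured and 1, Lyz2, was counted as higher in the labelled KO, at least 14.9-fold at low density and 27.0-fold at high density, while its second probe was at least 1.45-fold higher at high density. Csf1r gave 0.43 and 0.57, the latter with WT dim and both with unlike signs by dye, and Cd68 gave -0.10 and -0.38. Ptprc, Adgre1 and Itgam were well above background in no culture. The mesothelial list, with Msln its only measured marker, summed to 1920 to 1970 in WT low density, 502 to 546 in WT high density, 309 to 335 in KO low density and 234 to 275 in KO high density. The epithelial list summed in the same order to 1460 to 1610, 522 to 573, 526 to 616 and 308 to 339. Of this list Krt18 was detected in WT low density only. Krt19 was detected in both WT cultures and KO low density, but not on both arrays in KO high density. Epcam (Tacstd1 on the array), Cdh1 and Krt8 were detected in no culture. Of the neural list, Map2 was higher in the labelled KO at low density by 1.84, and with density it was higher in WT by 1.38. At dimmer probes, Map2 was at least 1.98-fold and 1.17-fold higher in the labelled KO at low density. With density in WT these probes gave at least 1.22-fold and 1.2-fold. Tubb3 was lower with density in both genotypes (-1.19 and -1.07). The skeletal muscle list, measured through Acta1 alone, summed to 8710 to 8880 in WT low density, 2050 to 2230 in WT high density, 8030 to 8610 in KO low density and 4060 to 4140 in KO high density. The part of these cells in the values of the members was not tested.

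Other genes of the pathway were read from lists written from general knowledge. Of 20 other retinoid metabolising enzymes, 19 were on the array and 14 were measured in each genotype comparison. At low density 4 were higher in the labelled KO and 1 lower, and at high density 5 were higher and 1 lower. The shares over all genes were 7.32% higher and 8.36% lower at low density, and 6.74% and 7.79% at high density. The list medians were 0.40 and 0.59, and nothing particular to this list or the lists below is read from such counts.

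Dhrs3, which reduces retinaldehyde back to retinol, had a log2 level of 7.26 and 7.51 in WT low density and 8.32 and 8.26 in WT high density. In KO it was 11.32 and 11.55 at low density and 10.75 and 10.66 at high density. The genotypes did not overlap, and the labelled KO was higher by 4.05 at low and 2.42 at high density. Its second probe gave 3.44 and 1.92. The density log2 ratio was 0.91 in WT and -0.73 in KO, so that the difference of -1.64 had the direction of that of Aldh1a7.

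Cyp26a1, a relative of Cyp26b1 with the same role, was not well above background in WT, at 6.23 and 5.96 at low density and 6.11 and 6.10 at high density. In KO it was 8.18 and 8.17 at low density and 7.59 and 7.55 at high density. It was at least 4.03-fold higher in the labelled KO at low density and at least 2.56-fold higher at high density, which is the opposite direction to Cyp26b1.

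Adh7 and Adh1 encode alcohol dehydrogenases that can oxidise retinol. Adh7 was not well above background in WT, at 5.94 to 6.05, and in KO it was 7.71 and 7.60 at low density and 9.87 and 9.70 at high density. The labelled KO was at least 2.80-fold higher at low density and at least 11.9-fold higher at high density. Adh1 was higher in the labelled KO at high density by 1.98, and its density log2 ratio in KO was 2.08. It has 2 further probes, one of which was well above background in no culture. Rdh14, a retinol dehydrogenase, was higher by 1.14 at low and 1.55 at high density at its brightest probe, while its second probe gave 0.32, under 2-fold, and 1.43. Dhrs4 was lower at low density with a log2 ratio of -1.02, and Dhrs9 was at least 1.99-fold lower at high density.

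**Figure D4:**
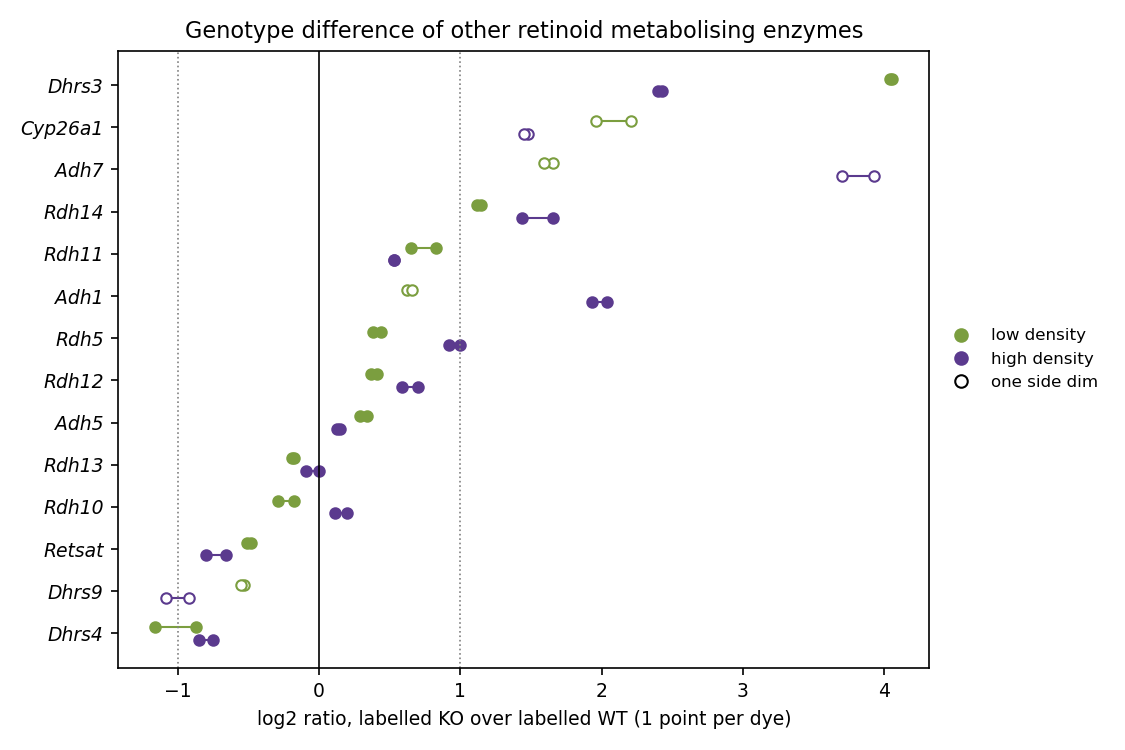
Log2 ratio of labelled KO over labelled WT (x axis, 1 point per dye) for the 14 other retinoid metabolising enzymes that were measured, at low and high density, ordered by the low density value. Dotted lines mark 2-fold and open points a comparison with one culture dim. Dhrs3 lies at 4.05 at low density, and the points of Adh7 at high density, drawn with WT dim, stand for a difference of at least 11.9-fold.

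Of 11 other uptake, storage and binding genes, 4 were measured at low density between genotypes, with 1 higher and 2 lower, and 5 at high density, with 0 higher and 1 lower, beside the same shares over all genes (7.32% and 8.36%, 6.74% and 7.79%). Fabp5, a lipid binding protein that can carry retinoic acid, was higher in the labelled KO at low density by 1.03, and its density log2 ratio was -1.01 in KO. Dgat1, an acyltransferase that can esterify retinol, had a genotype log2 ratio of -1.05 at low density.

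Of 12 other retinoid receptors and cofactors, 9 were measured in every comparison. In WT, 3 were higher at high density, Ncoa1 (1.22), Rxra (1.14) and Nrip1 (1.03), and 0 lower, and in KO 0 reached 2-fold. Over all genes 9.41% were higher and 6.09% lower in WT, and 7.15% and 3.87% in KO. Whether the receptors differ between genotypes here was not tested. A second Rxra probe gave -0.02 in WT and the dimmest Nrip1 probe 0.73. At low density Ncoa1 was higher in the labelled KO by 1.14, and Rxrb, a partner of the retinoic acid receptors, had a log2 ratio of -1.07. At high density 0 of 9 reached 2-fold. The shares over all genes were 7.32% higher and 8.36% lower at low density, and 6.74% and 7.79% at high density.

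Of 15 other genes known to respond to retinoic acid, 11 were measured between genotypes at low density, with 1 higher and 3 lower, and 12 at high density, with 0 higher and 4 lower. Over all genes 7.32% were higher and 8.36% lower at low density, and 6.74% and 7.79% at high density. The list medians were -0.49 and -0.60. The patterning gene Hoxa4 had a log2 level of 8.60 and 8.88 in WT low density and 8.24 and 8.28 in WT high density, and was well above background in no KO channel. It was at least 6.29-fold lower in the labelled KO at low density and at least 4.40-fold lower at high density, while its dimmer second probe was at least 1.42-fold lower at low density. Rarres2, a secreted chemoattractant named for its response to a retinoid, was higher at high density by 2.91 in WT and by 1.04 in KO, and its genotype log2 ratio at high density was -2.76. Its second probe gave 2.61 in WT, and 0.68 in KO, which is under 2-fold there. Tgm2, a transglutaminase, was lower at high density in both genotypes, with -1.80 in WT and -2.06 in KO. Its other probes gave between -1.05 and -0.78. Btg2, an antiproliferative gene, had a density log2 ratio of 0.44 in WT and -1.26 in KO.

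In density, 2 of 12 of these responsive genes were higher and 1 lower in WT, where Meis2 was higher by 1.21, and 2 of 9 higher and 3 lower in KO, where over all genes 9.41% and 6.09% (WT) and 7.15% and 3.87% (KO) were so.

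The other aldehyde dehydrogenases listed lie outside the Aldh1a family. Of 14 on the array, 12 were measured at low density between genotypes, with 1 higher and 3 lower in the labelled KO, and 11 at high density, with 0 higher and 2 lower, beside 7.32% and 8.36%, and 6.74% and 7.79%, of all genes. Aldh1l2, a mitochondrial enzyme of folate metabolism, had log2 ratios of -3.58 and -2.50 (-2.30 and -1.11 at its second probe), and Aldh3b1 of -1.55 and -2.72. Aldh6a1, of valine breakdown, was higher in the labelled KO at low density by 2.14 and in WT higher at high density by 2.40. Whether the Aldh1a members differed from this list was not tested.

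For the 4 members well above background in all 8 channels, the genes with the most similar pattern were sought among 12944 genes measured in all channels, by Euclidean distance between their 8 log2 levels after centring each gene. Nearest to Aldh1a7 were Ccl2 (distance 1.72), Rgs16 (2.08) and 3110039M20Rik (2.15), whereas the distance of Aldh1a7 from a flat pattern was 5.66. Ccl2, a chemokine, had a density log2 ratio of 0.82 in WT and -2.32 in KO and exceeded WT in the labelled KO by 4.76 at low and 1.62 at high density. Nearest to Cyp26b1 were Tpd52l1 (0.665), the amino acid transporter Slc1a5 (0.811) and Bean (0.952), with 3.62 for a flat pattern. Tpd52l1 gave -0.72 with density in WT, 0.47 in KO, and -2.73 and -1.55 between genotypes. For Rarb (nearest Ddx19b, Obfc2b and Vcpip1) and Stra6 (nearest Ccdc130, D14Ertd231e and 4921537I17Rik) the nearest genes lay at 0.131 to 0.162, against 0.311 and 0.371 for a flat pattern, and describe nearly level genes. The 8 channels come from 4 cultures, so these likenesses rest on 4 points measured in duplicate.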

How the data were processed

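Gene expression in embryonic fibroblasts labelled Lats2 KO or WT, at low and high density, was measured on 4 Agilent 2-colour arrays, and channels were assigned from the labels. Per the file headers, the arrays were extracted with Agilent Feature Extraction 10.5.1.1. The deposited scanner files hold raw intensity (spot means, with the median of the local background) and processed intensity, quality flags deposited as a score of 0 or 1, and the software's log10 ratio of Cy5 to Cy3. The deposited series matrix holds the same log10 ratio, turned to high over low density, and was used as an alternative.

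From raw intensity, background was corrected by normexp (offset 50), arrays were normalized by loess with controls at weight 0, and single channels were scaled by Aquantile (R 4.3.3, limma 3.58.1, statmod 1.5.0 and, to read files, the package data.table in version 1.17.8). Ratios of dim probes are compressed by the offset. Outlier spots were left out (107 to 224 per array), spots of a probe were averaged, and the brightest probe stood for a gene. A gene was measured when well above background on both arrays, or in both dyes, on at least 1 side of a comparison. Genotypes were compared within dye. Bounds set the dim channel to the higher of its own signal and the lowest signal of probes well above background there. Summaries used Python 3.11.15, numpy 2.4.6, pandas 2.3.3 and matplotlib 3.10.9. The rule for changed genes was tested on simulated data with technical noise only, which hold no variation between cultures.

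The members, lists and rules were chosen with earlier results of these data known. Named besides the members are, from each list and comparison, at most the 3 genes passing 2-fold with the largest log2 ratio, and the 3 genes nearest in pattern to each member measured in all channels. Some genes that this rule names are not reported here. Of 5 endothelial markers, 1 was detected in WT low density and 0 elsewhere, of 5 neural markers 2 in every culture, and of 4 skeletal muscle markers 1 in every culture. Array names were matched to current symbols through RefSeq synonyms (Meis2 is Mrg1 on the array, Lyz2 is Lyzs, Map2 is Mtap2, Adgre1 is Emr1), and Cyp26c1 was not matched. The number of arrays limits the precision. No p-value is given.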

Additional observations from a re-analysis of the deposited data

Results flagged for a closer look

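For 3 members the density effect had opposite directions in the labelled genotypes on every array, and these differences were not tested, since each genotype and density had 1 replicate. The density log2 ratio of KO minus that of WT was -5.16 for Aldh1a7, 1.69 for Cyp26b1 and 1.43 for Aldh1a3. For Aldh1a3 it involves dim channels and its second probe gave no value in KO. Groups of 4 or more samples, in which a single far value could be sought, did not exist.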

How the results depend on the processing

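No paired analysis was possible because the labels give no replicate numbers that genotypes share, and the t-test of the methods could not be run with 1 replicate per genotype and density. Of 61 counts of members recomputed under alternatives, 49 stayed within 1.5 times the main count. In WT the density count of 2 became 4 with the software's processed signals, with a 1.4-fold threshold and with the series matrix values, and 1 with a 3-fold threshold or when every channel had to be well above background. In KO the density count of 2 became 4 with offset 10, with processed signals, at 1.4-fold and with the series matrix, and 1 at 3-fold. The count of 3 members with different density effects became 5 with processed signals, and the count of 4 at low density between genotypes became 2 when every channel had to be well above background, which leaves out Aldh1a1 and Crabp1. The added members were Aldh1a3, Cyp26b1 and Crabp1 in the density comparisons, and Aldh1a1 and Crabp1 for the difference. Leaving out 1 array gave 2 to 3 members with density in WT and in KO (Cyp26b1 is added without WT array 1, or without KO array 2), and leaving out 1 dye orientation gave 3 for the difference, 4 for genotype at low density and 3 for genotype at high density. The 14 called log2 ratios were recomputed 140 times, 0 changed sign and 0 fell under 1 in size. Part of these recomputed values could not differ, since filters on dim probes leave a ratio as it is. The same holds for the mean over probes where a gene has 1 probe. Members with a dim side had wide ranges: the Aldh1a3 difference from 1.20 to 5.42, Aldh1a1 from 1.26 to 3.23 with density in WT and from 2.53 to 4.94 between genotypes at low density, and Crabp1 at low density from 5.34 to 8.35. Crabp1 at high density, where WT was measured but near background, ranged from 5.15 to 7.01. Aldh1a7, measured in all channels, ranged from 5.47 to 6.94 between genotypes at low density and from 2.35 to 3.52 with density in WT. The causes were not tested. Ratios with a dim side are bounds, and their size is not settled.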
